A study of Mus musculus with 12 samples.

Results

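The mouse miR-191 and miR-425 cluster was followed in small RNA sequencing libraries of cerebral cortex. Its members are mmu-mir-191 and mmu-mir-425, named as a pair from a shared transcript with an abundant and a less abundant member. They were chosen with earlier results of these data known. Both were found, so they make up 2 of the 589 miRNA precursors measured. Of the 589 precursors, 324 were above 0 in at least 1 library and 190 in all 12 libraries, and both members belonged to the latter. The study asked how drinking ethanol and the loss of the innate immune receptor TLR4 relate to cortical miRNAs. The cortices came from female mice of the C57BL/6J background, 7 weeks old at the start, which were kept for 5 months on water or on water containing 10% (v/v) ethanol. There were 4 groups of 3 libraries each: WT (wild type, TLR4+/+, water), WT + EtOH (wild type, ethanol), TLR4-KO (knockout, TLR4-/-, water) and TLR4-KO + EtOH (knockout, ethanol). Each library was a pool of the cortex RNA of 3 mice, so an SD below is the spread between pools and not between mice. The WT mice came from a supplier and the TLR4-KO mice from another colony, so genotype and source of the animals cannot be told apart.

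MicroRNAs are cut from hairpins in longer transcripts, and either arm of a hairpin (5p or 3p) can be loaded into an Argonaute protein, where the bases near its 5′ end, the seed, pair with target messenger RNAs. miR-191 and miR-425 sit side by side and are made from a common primary transcript in mammals. miR-191 is abundant in many tissues and has been used as a reference in qPCR, and the neurotrophin BDNF is among its described targets. miR-425 is usually the less abundant of the pair, and transcription driven by NF-κB, a factor downstream of TLR4, has been described for it in cultured cells. Since both come from a shared transcript, differences between their levels are usually ascribed to cutting and decay.

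The mature sequences are shown because each deposited value is for a whole hairpin, so that both arms enter it. They are RefSeq's for the assembly GRCm38.p6, printed 5′ to 3′, with the seed (bases 2 to 8) in capitals.
mmu-miR-191-5p: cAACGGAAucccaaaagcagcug
mmu-miR-191-3p: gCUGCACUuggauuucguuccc
mmu-miR-425-5p: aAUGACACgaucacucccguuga
mmu-miR-425-3p: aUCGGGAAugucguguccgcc
mmu-miR-489-3p: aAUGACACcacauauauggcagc
The 4 seeds of the cluster differed from each other, so the members are not a seed family although they share a transcript. Among 1738 mature mouse sequences, 1 other held one of these seeds: miR-489-3p, from chromosome 6, shares the seed of miR-425-5p and is shown for that reason. Its precursor mmu-mir-489 was not among the 589 precursors, so it has no value here. miR-191-5p has 23 bases with 52.2% G or C, and miR-425-5p has 23 bases with 47.8%.

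The hairpins, with the mature arms in capitals, show how both arms of each member are laid out.
mmu-mir-191: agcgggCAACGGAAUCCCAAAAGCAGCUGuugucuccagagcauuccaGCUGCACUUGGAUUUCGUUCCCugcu
mmu-mir-425: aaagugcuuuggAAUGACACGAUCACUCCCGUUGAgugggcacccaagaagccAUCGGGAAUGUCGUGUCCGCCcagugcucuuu
On GRCm38 they lie on the plus strand of chromosome 9, mmu-mir-191 at 108568319 to 108568392 (74 bases) and mmu-mir-425 at 108568777 to 108568861 (85 bases), with 384 bases between them. Both fall inside the non-coding gene 4833445I07Rik (108567533 to 108569174), whose start lies 786 bases before the mmu-mir-191 hairpin. In its unspliced transcript both hairpins are exonic. In its spliced transcript mmu-mir-191 is in the intron (108568181 to 108568483), and mmu-mir-425 starts just past the end of the last exon. The neighbouring protein-coding genes are Ndufaf3, on the minus strand with its start 98 bases before the host gene, and Dalrd3, on the plus strand, which starts 1024 bases after the mmu-mir-425 hairpin. A second annotated miRNA gene, Gm24083, overlaps mmu-mir-191 on the minus strand (108568295 to 108568414). Whether the authors counted by strand is not given in the sources used here, so reads of that pair could not be told apart without it.

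The values are a normalised, scaled expression score with no unit, on which the highest precursor stood at 134.824 in every library. No read count accompanies them, so the depth behind each value is not known here and no counting interval can be given. The paper does give reads by group, fewest for TLR4-KO + EtOH and with the widest spread for TLR4-KO. The score is not known to be linear, so differences below are differences of score and not folds, and the level of one member against the other is read by rank. Between 216 and 270 precursors were above 0 in a library. Principal components were taken from the 188 precursors that were above 0 in all 12 libraries and not constant. On the first (32.0% of their variance) the 3 WT libraries stood apart from the other 9, at -65.1 to -49.9 against 3.60 to 83.5. Every comparison with WT below includes that separation. TLR4-KO replicate 1 was farthest out on that component, and WT + EtOH replicate 1 on the second (18.8%).

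mmu-mir-191 was a high and mmu-mir-425 a middling precursor of the cortex in all 12 libraries. mmu-mir-191 stood between ranks 5 and 12 in each library (median 10), and mmu-mir-425 between ranks 59 and 102 (median 88). By mean value they were ranks 10 and 85 of 589. The pair was picked as an abundant and a less abundant member, so this order is a description only. Neither member passed the test in any comparison between groups.

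mmu-mir-191 scored 101, 102 and 106 in the pools of WT mice and 111, 105 and 105 when WT mice drank ethanol. Knockout mice on water scored 106, 105 and 105, and those on ethanol 105 in all 3 pools. The highest value belonged to WT + EtOH replicate 1 and the lowest to WT replicate 1, and every pair of groups overlapped in range or met at a shared value. WT averaged 103 ± 2.67 on water and 107 ± 3.68 on ethanol (mean ± SD, n = 3 each). The knockout averaged 105 ± 0.843 on water and 105 ± 0 on ethanol (mean ± SD, n = 3 each).

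mmu-mir-425 scored 48.5, 52.1 and 49.2 in WT pools on water and 48.9, 50.6 and 55.5 on ethanol. Knockout pools scored 63.9, 51.9 and 46.3 on water and 54.3, 50.6 and 51.1 on ethanol. The TLR4-KO group held both the highest and the lowest of the 12 values, and all groups overlapped. WT averaged 49.9 ± 1.88 on water and 51.7 ± 3.39 on ethanol, and the knockout 54.0 ± 8.99 on water and 52.0 ± 2.02 on ethanol (mean ± SD, n = 3 each). By mean the order was TLR4-KO, TLR4-KO + EtOH, WT + EtOH and WT, and no neighbours in that order differed beyond their spread. For mmu-mir-191 the order was WT + EtOH, TLR4-KO, TLR4-KO + EtOH and WT, again with no neighbours apart beyond their spread.

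**Figure D1:**
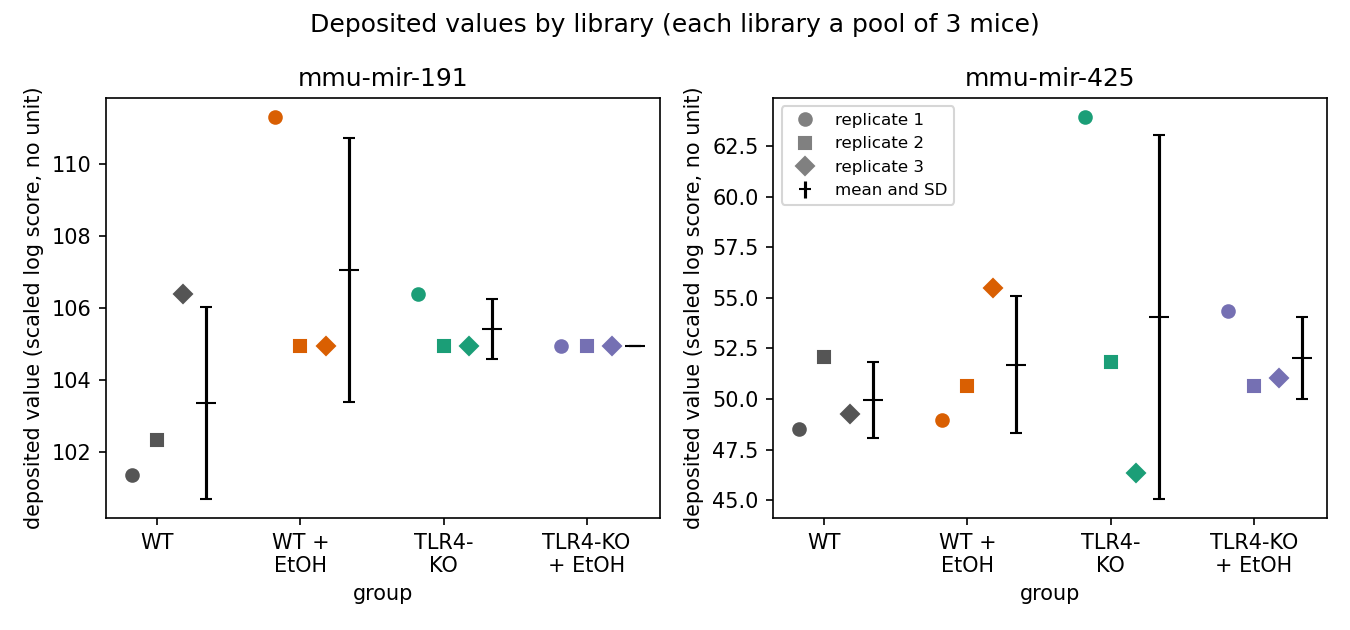
Deposited score (no unit) of mmu-mir-191 and mmu-mir-425 in each of the 12 libraries by group, with a point for each library and lines for the group mean and SD. mmu-mir-191 stayed between 101 and 111 and mmu-mir-425 between 46.3 and 63.9, and the groups overlapped for both.

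The scale of the deposited table set how finely mmu-mir-191 could be read. At each of ranks 5 to 12 the value was identical in all 12 libraries, so the score of mmu-mir-191 in a library was given by its rank there. In 7 of the 12 libraries it held rank 10 and the same value of 105, and these included all 3 TLR4-KO + EtOH libraries. Rank 10 was held by let-7c-2 in WT replicate 1, by mir-26a-2 in WT + EtOH replicate 1 and by mir-486a in the other 3 libraries. The step from a rank to the next was 0.868 to 2.61 in this range (median 1.39), so the SD of 0 is a shared rank and not a measured absence of spread. Around mmu-mir-425 the steps were smaller, from 0 to 0.948 (median 0.404), and the value at a given rank differed between libraries by up to 0.758.

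**Figure D2:**
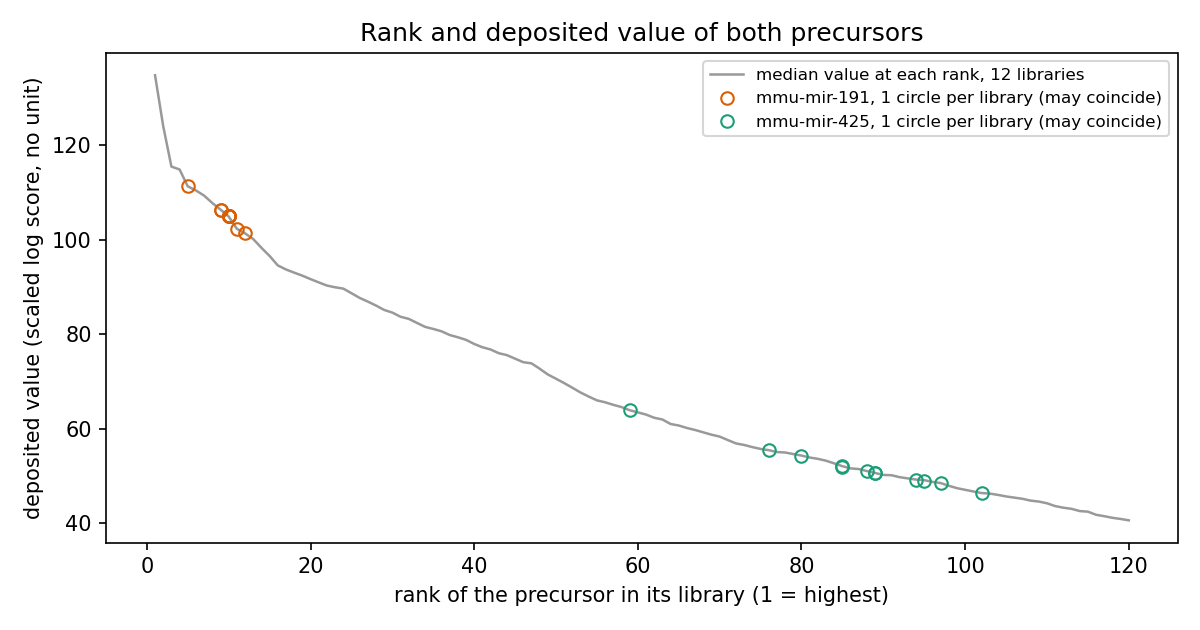
Deposited score (no unit) against the rank of a precursor within its library, with the positions of mmu-mir-191 and mmu-mir-425 in the 12 libraries marked. mmu-mir-191 sat at ranks 5 to 12 on the steep start of the curve and mmu-mir-425 at ranks 59 to 102 on its flatter part.

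Ethanol in wild-type mice gave the lowest unadjusted p for mmu-mir-191. Its score was 3.70 higher in WT + EtOH than in WT (95% interval -0.547 to 7.94, SE 1.85, limma, n = 3 against 3), with an adjusted p of 0.524 over all 589 precursors. Without WT + EtOH replicate 1 the difference was 1.57 and the adjusted p from limma was 1. mmu-mir-425 was 1.74 higher in WT + EtOH (-7.44 to 10.9, SE 4.01, limma adjusted p = 1). In that comparison 0 of the 2 members and 1.70% of all precursors passed an adjusted p of 0.05. Precursors at 0 in every library could not pass, yet they count in the adjustment and in this share and those below. With only the 285 precursors above 0 in at least 3 libraries, the limma adjusted p of mmu-mir-191 was 0.282, and 21 precursors passed instead of 10.

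Loss of TLR4 without ethanol left both members nominally higher, within wide intervals. mmu-mir-191 was 2.06 higher in TLR4-KO than in WT (-2.19 to 6.30, limma adjusted p = 0.973; 1.06 without WT replicate 1 and 3.58 without WT replicate 3), and mmu-mir-425 was 4.10 higher (-5.08 to 13.3, limma adjusted p = 1). The value for mmu-mir-425 rested on TLR4-KO replicate 1, without which the difference was -0.848. Of the 2 members 0 passed, and 2.55% of all precursors did.

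The other comparisons of single groups gave differences of either sign. mmu-mir-191 was lower in TLR4-KO + EtOH than in TLR4-KO (difference -0.486, interval -4.73 to 3.76), and mmu-mir-425 was lower there too (difference -2.03, interval -11.2 to 7.15). Without TLR4-KO replicate 1 those differences were 0 and 2.91. Here 0.340% of all precursors passed, and neither member did (limma adjusted p = 1 for both). Between TLR4-KO + EtOH and WT + EtOH mmu-mir-191 differed by -2.12 (-6.37 to 2.12) and mmu-mir-425 by 0.321 (-8.86 to 9.50). Without WT + EtOH replicate 1 these came to 0 and -1.05. In that comparison 0.509% of all precursors passed, with limma adjusted p = 1 for both members. From WT to TLR4-KO + EtOH, where both factors change, mmu-mir-191 differed by 1.57 (-2.67 to 5.82) and mmu-mir-425 by 2.06 (-7.11 to 11.2), neither passed (limma adjusted p = 1 for both), and 1.87% of all precursors did. Without WT replicate 1 the value for mmu-mir-191 was 0.574, and without WT replicate 3 it was 3.09. The comparisons share control libraries, so their values are not independent of each other.

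Averaged over both genotypes, ethanol left mmu-mir-191 higher by 1.61 (-1.40 to 4.61) and mmu-mir-425 lower, with a difference of -0.144 (-6.63 to 6.35), against 0.340% of all precursors passed. Averaged over both treatments, the knockout differed from the wild type by -0.0328 for mmu-mir-191 (-3.03 to 2.97) and by 2.21 for mmu-mir-425 (-4.28 to 8.70), against 1.36% passed. All 4 limma adjusted p were 1. Without TLR4-KO replicate 1 the signs for mmu-mir-425 turned, to 2.33 for ethanol and -0.263 for genotype, and without WT + EtOH replicate 1 that of mmu-mir-191 for genotype did, to 1.03. The ethanol difference of mmu-mir-191 was 0.543 without WT + EtOH replicate 1 and 2.36 without WT replicate 3. The interaction asked whether the ethanol difference itself changed with genotype. It was -4.18 for mmu-mir-191 (-10.2 to 1.82, SE 2.62, limma adjusted p = 0.736) and -3.77 for mmu-mir-425 (-16.8 to 9.21, SE 5.67, limma adjusted p = 1), while 1.19% of precursors passed. Without TLR4-KO replicate 1 the latter was 1.17, and without WT + EtOH replicate 1 the value for mmu-mir-191 was -2.06. The limma F test over all 4 groups, which asks for any difference, passed for 2.38% of precursors and for neither member (adjusted p = 1 for both).

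**Figure D3:**
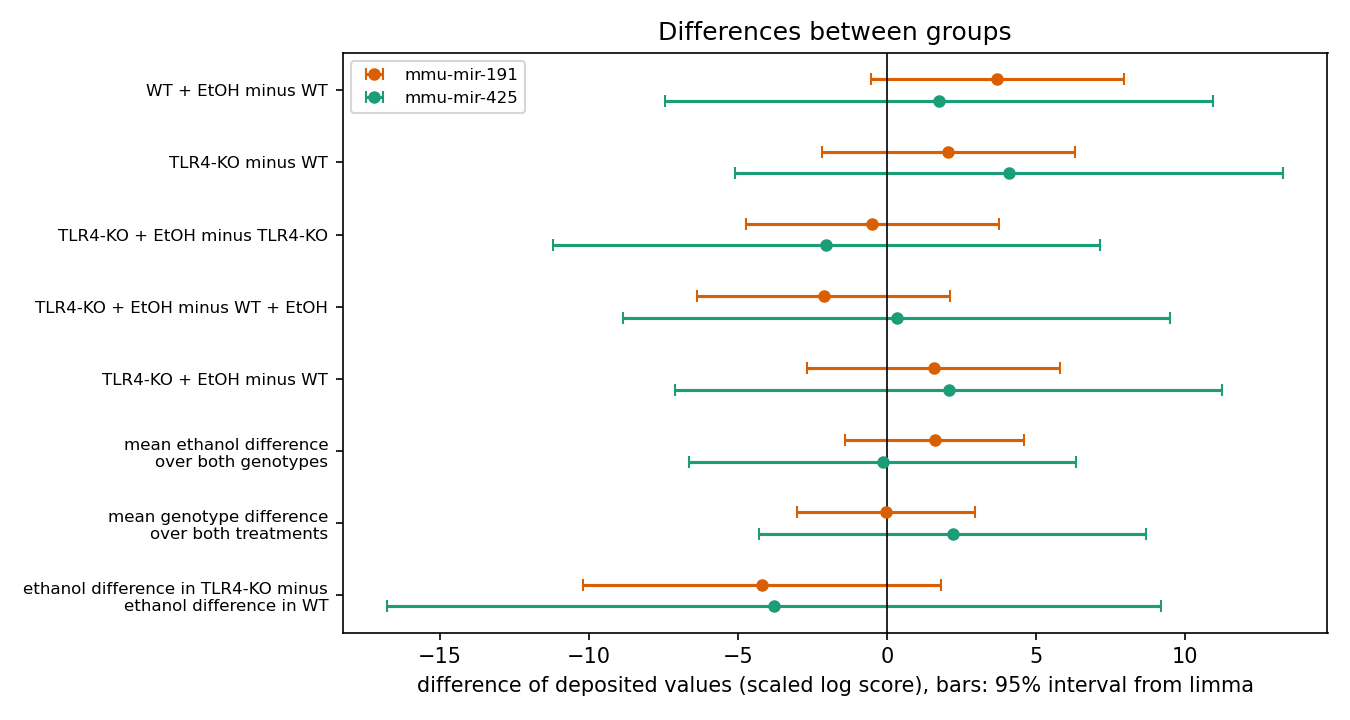
Fitted differences between groups in deposited score (no unit) for mmu-mir-191 and mmu-mir-425, with points for the limma estimates, bars for their 95% intervals and a line at 0. Every interval crosses 0, and those of mmu-mir-425 are the wider, such as -7.44 to 10.9 for WT + EtOH minus WT.

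These intervals show how wide a range of differences 3 pools a group left for each member. They are not adjusted for the number of precursors, so they do not bound what could go unseen. For mmu-mir-191 the WT + EtOH minus WT interval ran from -0.547 to 7.94, several rank steps in its part of the scale. For mmu-mir-425 the same interval ran from -7.44 to 10.9. A missed threshold does not show that the members were equal between groups. In bulk cortex, fewer cells of a type and less RNA per cell cannot be told apart.

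The spread of each member was set beside that of precursors at a like level. The SD over the 12 libraries was 2.41 for mmu-mir-191, rank 16 from the smallest among the 190 precursors above 0 in all libraries, whose median SD was 4.51. Among the 19 precursors nearest to it in level the median SD was 2.75 and 9 were smaller, so a small SD was shared by precursors near the top. The SD of mmu-mir-425 was 4.53, rank 98 of 190, and 11 of its 20 nearest precursors had a smaller one (median 4.14). Single libraries weighed on both ranks: without WT + EtOH replicate 1 mmu-mir-191 was rank 4, without TLR4-KO replicate 1 it was rank 26, and without the latter mmu-mir-425 was rank 30. The miR-181 precursors, which served the study as internal controls, had SDs of 0 for mir-181a-1 (at 134.824 in every library) and mir-181a-2 (124 in every library), 2.32 for mir-181b-1 and 1.5 for mir-181b-2. The values of mir-181a-1 and mir-181a-2 are the median values at ranks 1 and 2. Their SDs of 0 are therefore shared ranks and not a measured absence of spread. By mean value the nearest precursors to mmu-mir-191 were mir-486a, a red cell miRNA, at 106 ± 1.89 and let-7c-2 at 103 ± 3.03 (mean ± SD, n = 12). Those nearest to mmu-mir-425 were mir-673 at 52.2 ± 4.11 and mir-126b, from the endothelial miR-126 locus, at 51.8 ± 3.79 (mean ± SD, n = 12). None of these neighbours lay apart from its member beyond the spread.

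Since both members come from a shared transcript, the gap between them within a library was also followed, as a difference of score and in ranks. The gap in score was 52.8, 50.2 and 57.1 for WT pools on water and 62.4, 54.3 and 49.5 on ethanol. For the knockout it was 42.5, 53.1 and 58.6 on water and 50.6, 54.3 and 53.9 on ethanol. The widest gap was in WT + EtOH replicate 1, where mmu-mir-191 was highest, the narrowest in TLR4-KO replicate 1, where mmu-mir-425 was highest, and all groups overlapped. Ethanol against water gave 54.1 against 52.4 over both genotypes, a difference of 1.75 (exact permutation test within genotype, two-sided, p = 0.565, smallest possible 0.005). TLR4-KO against WT gave 52.1 against 54.4, a difference of -2.24 (exact permutation test within treatment, two-sided, p = 0.515). Between single groups the gap differed by 1.95 for WT + EtOH minus WT (p = 0.7) and by -2.04 for TLR4-KO minus WT (p = 0.9) in two-sided exact permutation tests, where 3 against 3 libraries cannot go below 0.1. The gap differed by 1.55 between TLR4-KO + EtOH and TLR4-KO and by -2.45 between TLR4-KO + EtOH and WT + EtOH (exact permutation p = 0.8 for each). Counted in ranks, mmu-mir-191 stood 50 to 92 places above mmu-mir-425, and this rank gap differed by -3 for WT + EtOH minus WT and by -9 for TLR4-KO minus WT (exact permutation p = 0.7 for each). Over both genotypes ethanol moved the rank gap by 0.167 (exact permutation p = 1), and over both treatments the knockout differed by -5.83 (exact permutation p = 0.48).

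Over the libraries the members did not rise and fall together to a degree that the test could see. Pearson's r between them was 0.0534 (permutation p = 0.765, n = 12) and Spearman's rho was 0.0391 (permutation p = 0.907), the only relation between measures tested over libraries. Since mmu-mir-191 held the same value in 7 libraries, its variation lay in the other 5. Without WT replicate 1 and WT + EtOH replicate 1, the libraries farthest from the median of mmu-mir-191, r was 0.276 (permutation p = 0.377, n = 10) and rho was -0.0225 (permutation p = 0.946). Within groups, as deviations from the group means, r was -0.0491 (exact permutation p = 0.907, n = 12), so the relation did not hold there either. Leaving out 1 library moved r from -0.143, without TLR4-KO replicate 1, to 0.374, without WT + EtOH replicate 1.

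**Figure D4:**
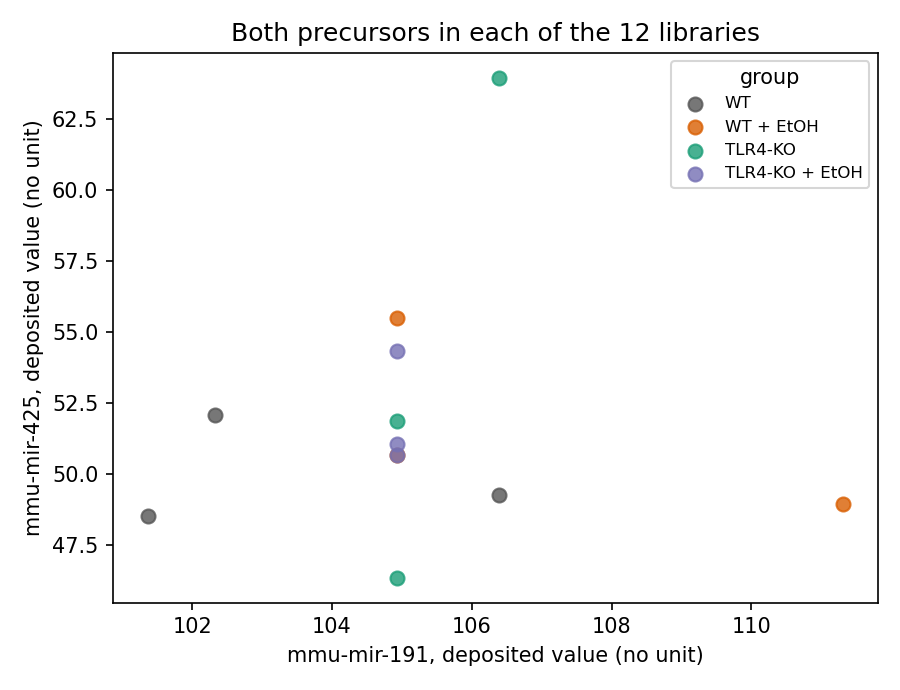
Deposited score (no unit) of mmu-mir-425 against that of mmu-mir-191, with a point for each of the 12 libraries marked by group (WT + EtOH replicate 2 and TLR4-KO + EtOH replicate 2 coincide). The points form no slope (Pearson's r = 0.0534), and 7 of them stand in a column at the shared mmu-mir-191 value of 105.

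Other hairpins listed as neighbours in the genome gave a frame for that value. The distance between hairpins was available for some pairs only, and it reached 45114 bases for let-7a-2 and mir-125b-1. Of 49 listed neighbouring pairs, 18 had both precursors above 0 in all libraries and not constant. Their r over the same 12 libraries ran from -0.828 for mir-143 and mir-145a, a vascular smooth muscle pair, to 0.640 for let-7c-2 and let-7b, with a median of -0.00730, and 8 of the 18 lay above the miR-191 and miR-425 pair. Over all 17578 pairs of the 188 precursors with any spread the median r was -0.00874. Without WT + EtOH replicate 1 and TLR4-KO replicate 1, r was 0.101 for mmu-mir-191 with mmu-mir-425 and -0.0281 for let-7c-2 with let-7b, and 4 of the 18 pairs lay above the cluster. The range was then -0.777 to 0.810, its top at mir-98 with let-7f-2 (0.0401 over 12 libraries), and mir-132 with mir-212 went from 0.271 to 0.723. These last pairs were chosen after their values were seen. All these values share libraries and scaling and are given as a description.

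**Figure D5:**
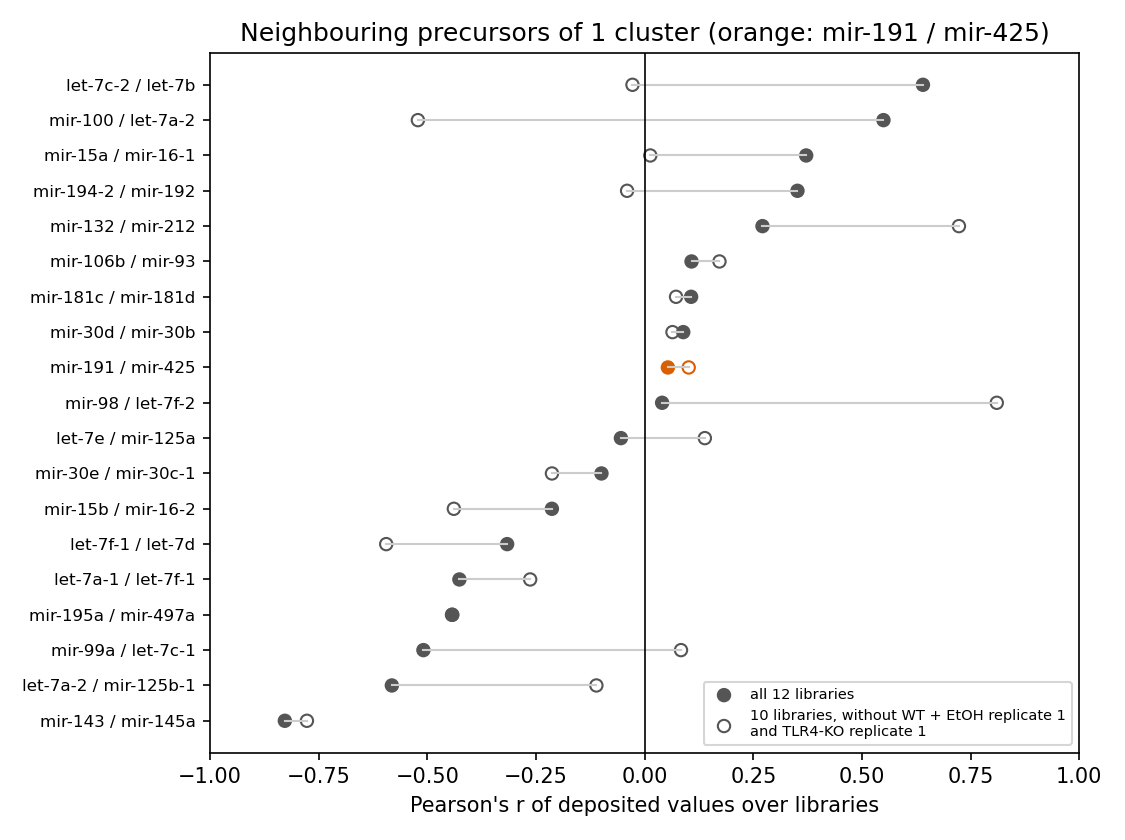
Pearson's r over the 12 libraries between neighbouring precursors, with a point for each of 18 other genomic pairs and a marked point for mmu-mir-191 with mmu-mir-425, and a line at 0. The miR-191 and miR-425 pair stands at 0.0534 within a range of -0.828 to 0.640.

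The precursors whose pattern was most like each member, by Pearson's r over the 12 libraries among 187 precursors, were different ones. For mmu-mir-191 they were mir-873b (r = 0.756), mir-129-1 (0.693), mir-129-2 (0.688), mir-100 (0.684) and mir-151 (0.672), and mmu-mir-425 came at place 83. mir-129-1 and mir-129-2 are brain-rich loci that give the same 5p miRNA, so the authors' counting could split or share their reads. For mmu-mir-425 they were mir-497a (0.906), mir-380 (0.862), mir-337 (0.844), mir-3544 (0.840) and mir-212 (0.809), and mmu-mir-191 came at place 73. mir-497a belongs to the miR-15 seed family, mir-380 and mir-337 to the imprinted Dlk1-Dio3 locus, and mir-212 is induced by neuronal activity through CREB. Without WT + EtOH replicate 1 and TLR4-KO replicate 1 the r of mir-873b with mmu-mir-191 was 0.584 and that of mir-100 was 0.264, and the r of mir-497a with mmu-mir-425 was 0.753 and that of mir-3544 was 0.485.

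WT + EtOH replicate 1 held the highest mmu-mir-191 and TLR4-KO replicate 1 the highest mmu-mir-425. These were also the libraries farthest out on the principal components. Their sums of cell type markers lay at an end of the 12 libraries in some lists only. Counted from the highest, WT + EtOH replicate 1 was rank 3 for neuronal and rank 8 for choroid plexus markers. TLR4-KO replicate 1 was rank 10 for blood cell markers. Of 14 names of neuronal and cortical miRNAs 11 were in the table and all 11 were above 0, with summed scores of 698 to 702 (WT) and 706 to 716 (WT + EtOH), against 658 to 719 (TLR4-KO) and 681 to 717 (TLR4-KO + EtOH), the lowest for TLR4-KO replicate 1. In WT + EtOH replicate 1 mir-124-1, mir-124-2 and mir-124-3 were at their highest values (44.8, 42.5 and 50.2), and mir-128-2 lay above its median. The mir-9 and mir-138 precursors, mir-128-1 and mir-132 of that library lay below their medians. The 3 oligodendrocyte precursors summed to 42.8 to 45.6 (WT) and 41.0 to 67.9 (WT + EtOH), against 29.2 to 36.5 (TLR4-KO) and 40.4 to 45.2 (TLR4-KO + EtOH), with WT + EtOH replicate 1 highest and TLR4-KO replicate 1 lowest. The low sum was mir-338 alone (29.2), as both mir-219a precursors had a median of 0 and were at 0 there. Blood cell miRNAs, 5 of 6 above 0 with mir-223 at 0, summed to 264 to 278 (WT) and 248 to 279.5 (WT + EtOH), against 241 to 257 (TLR4-KO) and 232 to 253 (TLR4-KO + EtOH), with WT + EtOH replicate 1 again highest. That sum was carried by mir-142a (55.5) and mir-144 (16.0), while mir-486a was at its lowest value there (102) and mir-451a (31.7) and mir-150 (74.1) lay below their medians of 33.8 and 76.0. Choroid plexus and ciliated cell miRNAs, 4 of 5 above 0 with mir-449a at 0, summed to 144 to 149 (WT), 146 to 149.9 (WT + EtOH), 142 to 177 (TLR4-KO) and 142 to 161 (TLR4-KO + EtOH), with TLR4-KO replicate 1 lowest. Its sum of 141.7 was close to the 142.4 of TLR4-KO + EtOH replicate 2. There mir-204, mir-211 and mir-34c of TLR4-KO replicate 1 lay below their medians, and mir-34b (6.87) above its median of 0. The liver miRNA mir-122 and both muscle miRNAs of the table were listed at 0 in all libraries. The endocrine miRNA mir-375 was above 0 in all 3 WT libraries (14.7, 8.17 and 5.23) and in 1 of the other 9 (18.1, TLR4-KO + EtOH replicate 2). The part of cell composition in the values of mmu-mir-191 and mmu-mir-425 was not tested.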

How the data were processed

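Small RNA of mouse cortex was sequenced in 12 libraries, 3 pools of 3 mice in each of 4 groups. Per the submitters' notes, reads were checked with FastQC 0.11.6, trimmed with cutadapt and aligned with Bowtie2 2.2.5 and TopHat to GRCm38. The paper names the trimmed mean of M-values as the normalisation of the raw counts. The deposited score runs from 0 to 134.824 and holds no counts, and the sources used here do not say how it was made. Of ranks 1 to 200, 31 held 1 value in all libraries, so the score may hold a further step that the paper does not name. How the authors shared multiply mapped reads between hairpins is not given in the sources used here. Columns not used numbered 0.

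Because the deposited score is not a count, groups were compared with limma 3.58.1 in R 4.3.3 (a mean for each group, 12 libraries in 1 fit, default eBayes) on the values as deposited, with no pseudocount and no filter. P-values were adjusted by Benjamini-Hochberg over all 589 precursors at a threshold of 0.05. The count model the study named could not be used. Single values were tested by exact permutation of libraries, and the correlation over 12 libraries with 100000 resamples. The steps were tested on simulated data. Python 3.11.15 and scipy 1.17.1 were used. p-values measure the spread between pools.

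Named precursors were the members, those sharing a seed with them, the 5 most alike by r, the neighbours by mean value, the extreme genomic pairs and the miR-181 controls. Members and lists were chosen with earlier results of these data known. Alternatives were quantile normalisation, centring on the miR-181 controls, a filter on precursors above 0 in at least 3 libraries, fits of only the groups compared, a replicate block, robust and trended eBayes, merging precursors equal within 1%, and leaving out each library. Leaving out WT + EtOH replicate 1 with TLR4-KO replicate 1 was chosen after seeing the data. The block, the filter, merging, both eBayes forms and fits of only the groups compared can change a p-value but not a member's difference. The same holds for leaving out a library outside the comparison. Quantile normalisation left every mmu-mir-191 difference as it was, since the value at each of its ranks was already identical in all libraries. Deviations of same-numbered libraries correlated at -0.109 to 0.153 (median 0.113), 10 of 18 pairs being above 0.1, against a median of -0.0375 and 4 of 36 for different numbers. Since the labels tie a number to no shared batch or animal and not every pair passed 0.1, the numbers were not taken as pairs.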

Additional observations from a re-analysis of the deposited data

How the results depend on the processing

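Of 500 alternative values of 26 results (members, gap, correlation), 0 passed (lowest p or adjusted p 0.193). Gaps between single groups could not pass, as their exact p is at least 0.1. Of the 460 values with a direction, 414 kept it (many settings cannot change it), 4 came to 0 and 42 took the other. Under the replicate block 0 of 25 results passed (single-group gaps could not). Leaving out WT + EtOH replicate 1 with TLR4-KO replicate 1, chosen after seeing the data, turned mmu-mir-425 to -0.848 (TLR4-KO minus WT), 2.91 (TLR4-KO + EtOH minus TLR4-KO), -1.05 (TLR4-KO + EtOH minus WT + EtOH), 3.01 (mean ethanol) and -0.949 (mean genotype), mmu-mir-191 to 0.786 (mean genotype), and the gap to -1.54 (WT + EtOH minus WT), 2.42 (TLR4-KO minus WT), -2.91 (TLR4-KO + EtOH minus TLR4-KO), 1.05 (TLR4-KO + EtOH minus WT + EtOH), -2.23 (mean ethanol) and 1.74 (mean genotype). Centring on the miR-181 controls turned mmu-mir-425 in TLR4-KO + EtOH minus WT + EtOH to -0.867, the gap in ranks for WT + EtOH minus WT was -3, and the correlation of deviations from group means was -0.0491. With 1 library left out, mmu-mir-425 ranged over -0.149 to 3.11 (WT + EtOH minus WT), -0.848 to 7.94 (TLR4-KO minus WT), -5.88 to 2.91 (TLR4-KO + EtOH minus TLR4-KO), -1.05 to 2.21 (TLR4-KO + EtOH minus WT + EtOH), -2.07 to 2.33 (mean ethanol), -0.263 to 4.13 (mean genotype) and -7.62 to 1.17 (interaction), and mmu-mir-191 over -0.564 to 1.03 (mean genotype), 1.57 to 5.21 (WT + EtOH minus WT), 1.06 to 3.58 (TLR4-KO minus WT), 0.574 to 3.09 (TLR4-KO + EtOH minus WT), 0.543 to 2.36 (mean ethanol) and -5.70 to -2.06 (interaction). The gap ranged over -1.54 to 4.91 (WT + EtOH minus WT), -5.64 to 2.42 (TLR4-KO minus WT), -2.91 to 5.15 (TLR4-KO + EtOH minus TLR4-KO), -5.40 to 1.05 (TLR4-KO + EtOH minus WT + EtOH), -2.08 to 1.38 (TLR4-KO + EtOH minus WT), -0.479 to 3.55 (mean ethanol) and -4.04 to -0.0127 (mean genotype), and the correlation over -0.143 to 0.374. The cause was not tested. The number of precursors called moved from 10 to between 7 and 21 (WT + EtOH minus WT), 15 to between 13 and 31 (TLR4-KO minus WT), 2 to between 0 and 3 (TLR4-KO + EtOH minus TLR4-KO), 3 to between 0 and 3 (TLR4-KO + EtOH minus WT + EtOH), 11 to between 5 and 19 (TLR4-KO + EtOH minus WT), 2 to between 0 and 17 (mean ethanol), 8 to between 4 and 14 (mean genotype) and 7 to between 3 and 13 (interaction), with every library kept or those 2 left out. With 1 library left out these numbers were 4 (WT replicate 2) to 18 (TLR4-KO replicate 1) for WT + EtOH minus WT, 11 to 22 for TLR4-KO minus WT, 0 (TLR4-KO + EtOH replicate 2) to 4 (WT + EtOH replicate 3) for TLR4-KO + EtOH minus TLR4-KO, 0 to 3 for TLR4-KO + EtOH minus WT + EtOH, 7 to 17 for TLR4-KO + EtOH minus WT, 2 to 8 (TLR4-KO replicate 1) for mean ethanol, 2 (TLR4-KO + EtOH replicate 2) to 12 for mean genotype and 2 (TLR4-KO + EtOH replicate 2) to 15 (WT + EtOH replicate 1) for the interaction (the library left out in parentheses). The intervals given are not adjusted for the number of precursors, so they are no limits of detection, and a difference beyond them could also miss the threshold.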
